A study of Mus musculus with 7 samples.

Results

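The 9 genes *Wee1*, *Cdkn1a*, *Cdkn1b*, *Cdkn2c*, *Myc*, *Mycn*, *Ccnd1*, *Ccnd2* and *Ccnd3* gate entry into and passage through the cell cycle and have known input from the circadian clock. They were listed by symbol, with no threshold on a measured value, from the 21965 genes of a count table of contused mouse spinal cord. All 9 had enough reads to be tested. The study asked how loss of the clock transcription factor BMAL1 affects the injured cord. RNA was sequenced from 3 *Bmal1*-/- and 4 wild type (WT) mice at 3 days post-injury (dpi).

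*Bmal1*-/- mice were of the strain B6.129-Arntltm1Bra/J, held on C57BL/6J, a whole-body null in which every cell type of the cord lacks BMAL1 from conception. *Arntl* is the gene symbol of BMAL1. The WT mice were C57BL/6J, and 1 of the 4 was a littermate of a knockout. The *Bmal1*-/- group held 2 females and 1 male, which was replicate 3, and the WT group held 2 females and 2 males. All 7 mice were 8 to 10 weeks old, received a moderate contusion at thoracic level 9 (50 kdyn, 400 to 600 µm displacement), and were killed 3 to 5 h after lights on. Each library was made from poly-A RNA of 5 mm of cord around the epicenter. No library of sham or uninjured cord was used here, so the values compare genotypes after injury and not injury with no injury.

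Progress through the cell cycle depends on cyclin-dependent kinases (CDKs). D cyclins, whose genes respond to growth signals and to MYC, activate CDK4 and CDK6 in G1, the INK4 inhibitors block that step, the CIP/KIP inhibitors p21 and p27 restrain several CDKs, and the kinase WEE1 holds CDK1 inactive before mitosis. The clock reaches this machinery through E-boxes bound by CLOCK and BMAL1, which are known to drive *Wee1* in liver, and through the REV-ERB nuclear receptors, which are known to repress *Cdkn1a* there. In contused cord at this stage, dividing cells include microglia, infiltrating myeloid cells, glial progenitors, astrocytes and vascular cells.

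Promoter sequences from RefSeq on GRCm38.p6 were matched for 5 of the 9 genes, with 8 windows between them, each running from 250 bases before a transcription start to 50 bases after it. No window was available for *Wee1*, *Myc*, *Ccnd1* and *Ccnd2*, so their promoters were not searched. Printed here are windows of *Cdkn1a*, *Cdkn2c* and *Ccnd3*, the 3 genes past the threshold in 1 of the alternative tests given further on. Capitals mark matches, on either strand, to the E-box CACGTG, the REV-ERB core site AGGTCA, the D-box TTANGTAA, the CCAAT box CCAAT, the GC box GGGCGG, the E2F site TTTNNCGC and the TATA box TATAAA. All are written 5′ to 3′ on the strand of the gene.
Cdkn1a, second start, chr17:29093519-29093818, plus strand: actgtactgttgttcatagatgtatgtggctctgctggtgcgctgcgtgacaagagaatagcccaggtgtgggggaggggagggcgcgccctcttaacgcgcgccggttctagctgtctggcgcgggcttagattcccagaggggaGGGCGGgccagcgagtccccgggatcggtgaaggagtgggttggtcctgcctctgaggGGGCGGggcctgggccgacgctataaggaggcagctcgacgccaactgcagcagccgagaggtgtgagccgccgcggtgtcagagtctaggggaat
Cdkn2c, first start, chr4:109666707-109667006, minus strand: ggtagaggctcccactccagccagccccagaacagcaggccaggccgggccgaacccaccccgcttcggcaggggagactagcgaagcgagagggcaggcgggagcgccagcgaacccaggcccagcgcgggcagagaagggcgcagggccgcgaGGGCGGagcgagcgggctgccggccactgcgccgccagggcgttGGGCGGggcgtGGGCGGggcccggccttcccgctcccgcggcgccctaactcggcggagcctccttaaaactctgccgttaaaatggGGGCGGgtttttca
Cdkn2c, second start, chr4:109665323-109665622, minus strand: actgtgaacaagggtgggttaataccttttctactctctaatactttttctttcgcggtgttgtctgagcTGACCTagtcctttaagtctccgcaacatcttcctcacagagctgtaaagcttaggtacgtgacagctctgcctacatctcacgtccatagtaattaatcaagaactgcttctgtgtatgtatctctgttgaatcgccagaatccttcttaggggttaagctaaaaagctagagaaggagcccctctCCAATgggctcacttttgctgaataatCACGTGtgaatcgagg
Ccnd3, first start, chr17:47504801-47505100, plus strand: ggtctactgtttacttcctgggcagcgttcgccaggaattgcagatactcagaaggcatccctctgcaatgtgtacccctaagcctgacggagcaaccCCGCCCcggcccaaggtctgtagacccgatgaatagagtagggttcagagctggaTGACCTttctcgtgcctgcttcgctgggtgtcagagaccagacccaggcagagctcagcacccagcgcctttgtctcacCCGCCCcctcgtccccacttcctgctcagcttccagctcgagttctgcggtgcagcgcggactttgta

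Among the 8 windows, an E-box was found in 1, the second *Cdkn2c* window, where it began 35 bases after the start. E-boxes were present in 7.15% of the 32851 mouse promoter windows of the same length. The REV-ERB core site was found in 2 of the 8, at -180 in the second *Cdkn2c* window and at -97 in the first *Ccnd3* window, both on the opposite strand, and in 16.3% of all windows. GC boxes were found in 6 of the 8 and in 35.7% of all windows, CCAAT boxes in 3 and in 37.4%, and the E2F site in 1, that of *Mycn*, and in 5.17%. Of the 3 E2F matches in the *Mycn* window, 2 overlapped each other on opposite strands, and no other matches overlapped. No D-box and no TATA box was found, against 2.32% and 13.6% of all windows. These are matches of letters in short windows and say nothing of whether a factor binds.

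In the injured cord, the inhibitor *Cdkn1a* was higher and the inhibitor *Cdkn2c*, the D cyclins *Ccnd1* and *Ccnd3* and the kinase *Wee1* were lower in every *Bmal1*-/- library than in every WT library. None of the 9 genes passed an adjusted p of 0.05 in edgeR's quasi-likelihood test (Benjamini-Hochberg, 15743 genes), a threshold that 1.57% of all tested genes passed. At an unadjusted p under 0.05 there were 5 of the 9 genes, against 20.9% of all genes. The groups did not overlap for 4 genes that were lower and 1 that was higher in *Bmal1*-/-, against 13.5% and 13.4% of all genes in those directions. The median log2 fold change was -0.25 over the 9 genes and -0.01 over all genes.

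Other tests gave other counts, DESeq2 being the tool that the study used. DESeq2's Wald test called 3 of the 9 genes at an adjusted p under 0.05, *Cdkn2c* and *Ccnd3* lower and *Cdkn1a* higher. It called 9.13% of the 16369 genes to which it gave an adjusted p. limma-voom called 0. With WT replicate 3 left out, edgeR called 2, *Cdkn2c* lower and *Cdkn1a* higher, against 4.66% of all genes.

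WT replicate 3, from a male, stood away from the rest of its group on the first 2 principal components over all genes. It was the highest WT library for 6 of the 9 genes and for 38.4% of all tested genes. *Bmal1*-/- replicate 3, the only male of its group, was the lowest of that group for 7 of the 9, and the share of all genes was not taken. On the first component WT replicate 4, also a male, was at 10.2 and WT replicate 3 at 51.4. The WT females were at 19.5 and 16.7. On the second component the WT females were at -32.4 and -32.4, WT replicate 3 at 36.9 and WT replicate 4 at 7.23. The *Bmal1*-/- females were at 15.3 and -2.44 there, and the male at 7.73. Any part of sex in these positions was not tested. Total counts ran from 38529644 to 44096737 per library, so every member but *Mycn* rested on 404 or more reads in each library. Levels are given as CPM, read counts divided by library totals that were scaled by the trimmed mean of M values (TMM), and errors are SD over 3 *Bmal1*-/- or 4 WT libraries. Since the samples are whole tissue, fewer cells of a type and less RNA per cell cannot be told apart.

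**Figure D1:**
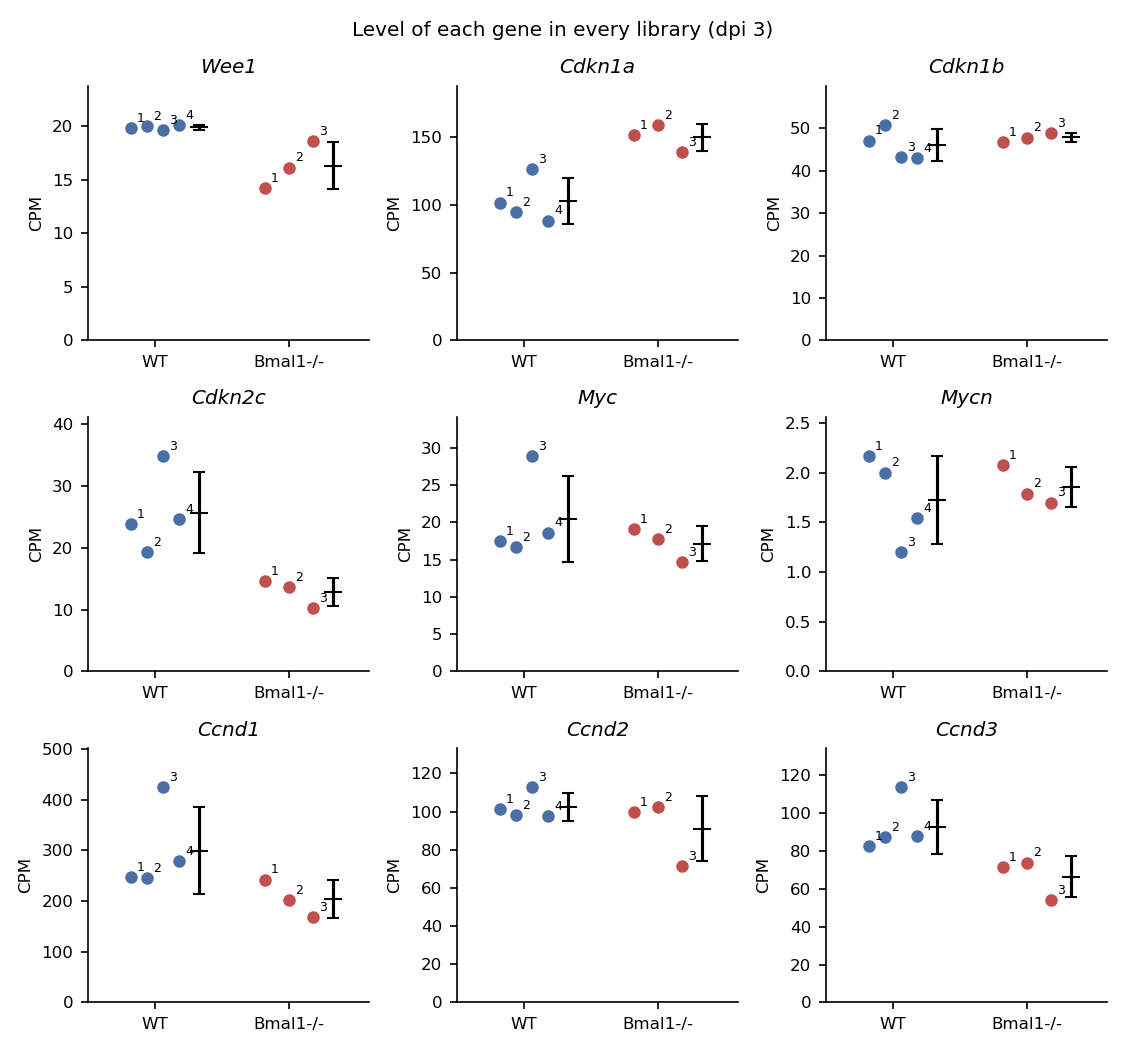
CPM of each of the 9 genes in every library, with WT in blue and *Bmal1*-/- in red; small numbers are replicate numbers, and the black mark and bar beside each group are its mean and SD. *Cdkn1a* stood higher, and *Cdkn2c*, *Ccnd1*, *Ccnd3* and *Wee1* lower, in all 3 *Bmal1*-/- libraries than in all 4 WT libraries, with the nearest pair for *Ccnd1* at 242.5 and 245.1 CPM.

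The CIP/KIP inhibitor *Cdkn1a* (ENSMUSG00000023067, chr17:29090976-29100727, plus strand) encodes p21, which blocks CDK2 and other CDKs and is the best known transcriptional target of p53. Its level was 151.7, 159.2 and 139.2 CPM in *Bmal1*-/- replicates 1 to 3, and 101.8, 95, 126.6 and 88.4 CPM in WT replicates 1 to 4. All 3 *Bmal1*-/- libraries were above the highest WT library, which was replicate 3. The means were 150.1 ± 10.1 and 102.9 ± 16.7 CPM, a log2 fold change of 0.54 (SE 0.13, 95% interval 0.25 to 0.84) with an adjusted p of 0.0845 in edgeR's quasi-likelihood test (Benjamini-Hochberg). DESeq2 gave an adjusted p of 0.00424. Without WT replicate 3 the log2 fold change was 0.66 and edgeR's adjusted p 0.00685. The other 13 of 15 alternative settings left the gene uncalled, among them sex as a covariate with an edgeR adjusted p of 0.149. An antisense gene, AC167363.2, shares 273 bases or 7.68% of the exon bases of *Cdkn1a*, and the strand setting of the counting was not given.

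p27, the product of *Cdkn1b* (ENSMUSG00000003031, chr6:134920401-134925513, plus strand), is a second CIP/KIP inhibitor that holds cells in quiescence. *Cdkn1b* stood at 46.8, 47.8 and 48.9 CPM in *Bmal1*-/- and at 47.1, 50.8, 43.2 and 42.9 CPM in WT. The groups overlapped, and the log2 fold change of 0.06 had a 95% interval of -0.12 to 0.23 and an adjusted p of 0.648 in edgeR's quasi-likelihood test. Of the 9 genes it varied least across the 7 libraries, with an SD of 0.09 on the log2 scale.

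*Cdkn2c* (ENSMUSG00000028551, chr4:109660876-109667189, minus strand) encodes p18, an INK4 inhibitor of CDK4 and CDK6. It was at 14.6, 13.7 and 10.3 CPM in *Bmal1*-/- and at 23.9, 19.3, 34.9 and 24.6 CPM in WT. Every *Bmal1*-/- library was below every WT library, and this was the largest difference among the 9 genes. The means were 12.8 ± 2.28 and 25.7 ± 6.59 CPM, a log2 fold change of -1.0 (SE 0.22, 95% interval -1.51 to -0.49), or 0.5 times the WT level, with an adjusted p of 0.0761 in edgeR's quasi-likelihood test. DESeq2 gave an adjusted p of 0.000766. Leaving out WT replicate 3, the highest library, brought the log2 fold change to -0.82 and edgeR's adjusted p to 0.0329. In the other 13 of 15 alternative settings *Cdkn2c* was not called, and with sex as a covariate edgeR's adjusted p was 0.143.

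The RNA of the 3 inhibitors therefore had a different make-up in the genotypes, a comparison chosen after the values were seen. Per kilobase of exon, *Cdkn1a* made up 73.1, 74.2 and 72.9% of their sum in *Bmal1*-/- and 59.8, 59.3, 61.3 and 57.3% in WT. *Cdkn2c* made up 9.29, 8.44 and 7.10% in *Bmal1*-/- and 18.6, 16.0, 22.4 and 21% in WT. WT replicate 3, which was high for both genes, was not set apart in the share of *Cdkn1a*. These shares are taken within a library and do not depend on the scaling between libraries.

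**Figure D2:**
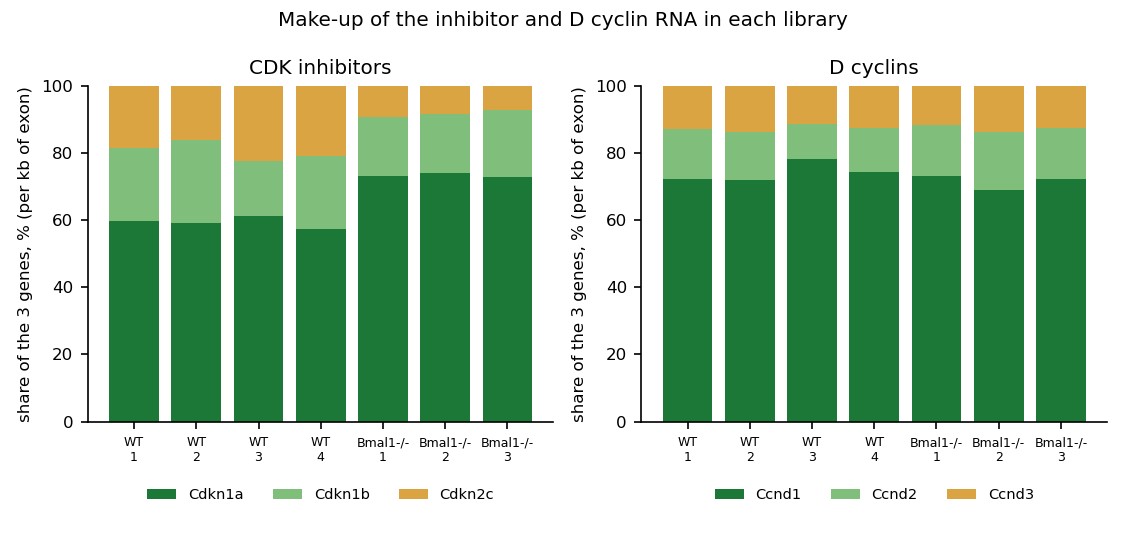
Share of each gene, per kilobase of exon, in the summed level of the 3 CDK inhibitors (left) and the 3 D cyclins (right), with 1 bar per library and WT to the left of *Bmal1*-/-. The *Cdkn1a* share was 72.9 to 74.2% in the *Bmal1*-/- libraries and 57.3 to 61.3% in the WT libraries. Among the D cyclins, the *Ccnd1* and *Ccnd3* shares overlapped between the genotypes. The *Ccnd2* share did not, at 15.1 to 17.5% in *Bmal1*-/- and 10.4 to 14.8% in WT.

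*Ccnd1* (ENSMUSG00000070348, chr7:144929931-144939925, minus strand), the D cyclin most often induced by mitogens, was at 242.5, 201.5 and 168.9 CPM in *Bmal1*-/-. It was at 248.0, 245.1, 425.5 and 278.9 CPM in WT. The groups did not overlap, but the highest *Bmal1*-/- library was close to 2 of the WT libraries, and WT replicate 3 was far above the rest. The means were 204.3 ± 36.9 and 299.4 ± 85.5 CPM, a log2 fold change of -0.55 (SE 0.22, 95% interval -1.08 to -0.03) with an adjusted p of 0.227 in edgeR's quasi-likelihood test. Without WT replicate 3 it was -0.33. LTO1, on the opposite strand, shares 1100 bases or 23.4% of the exon bases of *Ccnd1*, and its own level was 21.9 CPM in both genotypes.

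*Ccnd2* (ENSMUSG00000000184, chr6:127125162-127152193, minus strand), which marks neural progenitors and activated lymphoid cells among others, was at 99.6, 102.2 and 71.4 CPM in *Bmal1*-/- and 101.3, 98.0, 113.0 and 97.5 CPM in WT. The groups overlapped, and *Bmal1*-/- replicate 3 alone lay below the WT range. The log2 fold change was -0.17 (95% interval -0.48 to 0.14), with an adjusted p of 0.436 in edgeR's quasi-likelihood test, and -0.03 without that library. Antisense genes Gm43126 and 9330179D12Rik share 3.95% and 3.91% of its exon bases.

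*Ccnd3* (ENSMUSG00000034165, chr17:47505051-47599691, plus strand) encodes the D cyclin prominent in blood cells and muscle. Its levels were 71.4, 73.9 and 54.1 CPM in *Bmal1*-/- and 82.5, 87.3, 113.9 and 87.7 CPM in WT, without overlap. The means were 66.4 ± 10.8 and 92.8 ± 14.2 CPM, a log2 fold change of -0.48 (SE 0.15, 95% interval -0.83 to -0.13) with an adjusted p of 0.156 in edgeR's quasi-likelihood test. DESeq2's adjusted p was 0.0489, and no library left out brought edgeR's below 0.12. *Bysl*, on the opposite strand, shares 4.11% of the exon bases of *Ccnd3*, and its log2 fold change was -0.17.

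Of the 3 D cyclins, only *Ccnd2* had shares that did not overlap between the genotypes. Per kilobase, *Ccnd1* was 71.5 ± 2.30% of their sum in *Bmal1*-/- and 74.2 ± 2.95% in WT, *Ccnd2* was 16.0 ± 1.34% and 13.2 ± 1.97%, and *Ccnd3* was 12.5 ± 0.992% and 12.6 ± 1.03%. The *Ccnd2* share was higher in each *Bmal1*-/- library, at 15.1 to 17.5%, than in each WT library, at 10.4 to 14.8%. For *Ccnd1* and *Ccnd3* the groups overlapped.

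*Myc* (ENSMUSG00000022346, chr15:61985391-61990374, plus strand) encodes the growth transcription factor that drives D cyclin and ribosome genes. It was at 19.1, 17.7 and 14.6 CPM in *Bmal1*-/- and 17.5, 16.7, 28.9 and 18.6 CPM in WT. The groups overlapped, and WT replicate 3 was far above the other 3 WT libraries. The log2 fold change was -0.25 (95% interval -0.74 to 0.23), with an adjusted p of 0.465 in edgeR's quasi-likelihood test, and -0.04 without that library.

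*Mycn* (ENSMUSG00000037169, chr12:12936093-12941914, minus strand), the paralog used by neural progenitors, was near 2 CPM. It stood at 2.08, 1.79 and 1.70 CPM in *Bmal1*-/- and 2.17, 2.00, 1.2 and 1.54 CPM in WT, from 48 to 85 reads. The log2 fold change of 0.10 had a 95% interval of -0.43 to 0.64, and the groups overlapped. Without WT replicate 3, the lowest library, it was -0.04.

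*Wee1* (ENSMUSG00000031016, chr7:110122046-110143286, plus strand), whose kinase phosphorylates and restrains CDK1, was at 14.2, 16.1 and 18.6 CPM in *Bmal1*-/- and 19.8, 20, 19.6 and 20.1 CPM in WT. The WT libraries lay within 0.04 of each other on the log2 scale and the *Bmal1*-/- libraries were all below them. The means were 16.3 ± 2.18 and 19.9 ± 0.231 CPM, a log2 fold change of -0.29 (SE 0.10, 95% interval -0.52 to -0.06) with an adjusted p of 0.179 in edgeR's quasi-likelihood test. With 1 library left out at a time, the log2 fold change lay between -0.40 and -0.20.

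*Wee1* lies 3.06 Mb from the targeted *Arntl* locus, and *Ccnd1* lies 31.62 Mb from it on the other side. Within 15 Mb of *Arntl*, edgeR called 15 of 323 tested genes, 13 lower and 2 higher, or 4.64%, against 1.5% of all other genes. Of the 16 tested genes between *Wee1* and *Arntl*, 0 were called. Whether DNA linked to the targeted allele has a part in the *Wee1* value was not tested.

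**Figure D3:**
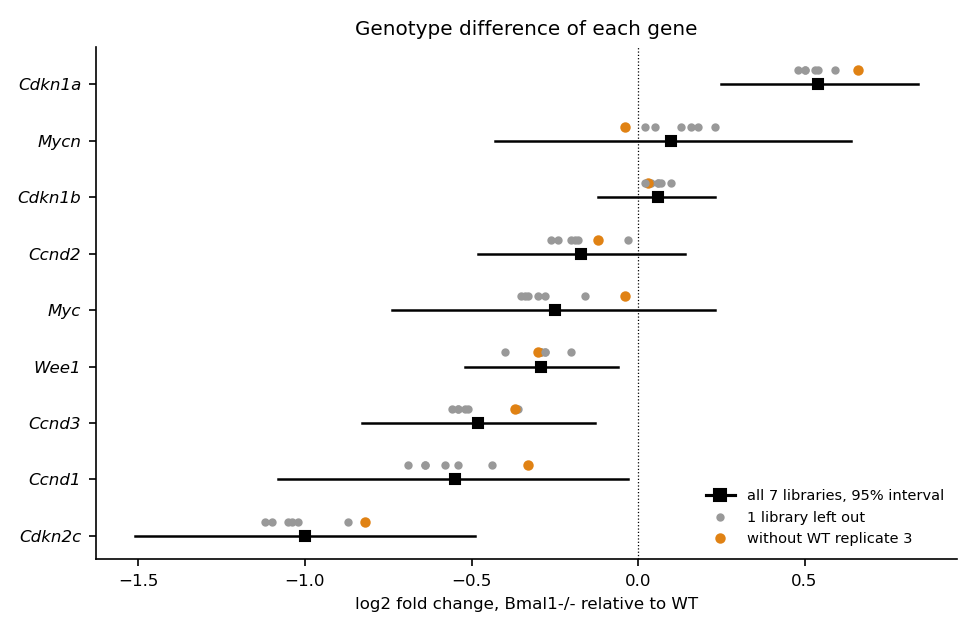
Log2 fold change of each gene, *Bmal1*-/- relative to WT, from the edgeR fit of all 7 libraries (black square, 95% interval), with fits that each leave out 1 library above it (grey, orange for the fit without WT replicate 3). *Cdkn2c* stayed between -1.12 and -0.82 and *Cdkn1a* between 0.48 and 0.66, while *Myc*, *Mycn* and *Ccnd2* came to -0.04, -0.04 and -0.03 in 1 of the fits.

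Per kilobase of exon, the level in WT was highest for *Ccnd1* at 63.6 ± 18.1 CPM per kb, followed by *Cdkn1a* at 29.0 ± 4.69. The next 5 genes, *Ccnd2* at 10.9, *Ccnd3* at 10.6, *Cdkn1b* at 10.1, *Cdkn2c* at 9.56 and *Myc* at 7.52, each overlapped their neighbours. *Wee1* followed at 5.82 ± 0.0676 and *Mycn* was lowest at 0.524 ± 0.134. In *Bmal1*-/-, *Ccnd1* at 43.4 ± 7.84 and *Cdkn1a* at 42.2 ± 2.84 overlapped, and *Cdkn2c* at 4.78 and *Wee1* at 4.76 stood beside each other.

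Among the other genes of the pathway, the 10 kinases and cyclins of G1 and S had no gene past the threshold and a median log2 fold change of -0.34, with *Ccne2*, an activator of CDK2, at 5.68 ± 0.601 CPM in *Bmal1*-/- and 9.58 ± 1.76 CPM in WT (edgeR adjusted p 0.0764). The 9 genes of the mitotic switch likewise had none, with all 9 lower and a median of -0.92. *Cdc25b*, the phosphatase that removes the mark set by WEE1, was at 15 ± 0.514 and 24.7 ± 4.38 CPM (edgeR adjusted p 0.0556). Opposite parts of this switch were thus both lower in *Bmal1*-/-, *Wee1* by 0.29 and *Cdc25b* by 0.72 on the log2 scale, and neither passed the test.

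For the other 5 CDK inhibitors none passed and the median was -0.38. *Cdkn3*, a phosphatase that is itself expressed in dividing cells, was at 3.24 and 6.40 CPM. Of 16 RB and E2F genes, 1 passed, namely *Rb1*, the G1 brake that D cyclin kinases inactivate. It was at 108.6, 103.3 and 96.7 CPM in *Bmal1*-/- and 72.6, 74.4, 72.2 and 72.1 CPM in WT, and rose by 0.50 on the log2 scale (SE 0.06) with an adjusted p of 0.00854 in edgeR's quasi-likelihood test (Benjamini-Hochberg). That call was lost without *Bmal1*-/- replicate 1. The median of that list was -0.34.

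The p53 arm, with 22 genes, had none past the threshold and a median of -0.14, 15 genes being lower and 7 higher. *Chek1* had the smallest p, at 3.39 and 6.66 CPM (edgeR adjusted p 0.0785). The groups did not overlap for 5 of the 22 genes that were lower in *Bmal1*-/-, *Chek1*, *Ccng1*, *Phlda3*, *Btg2* and *Eda2r*, and for 1 that was higher, *Zmat3*. Over all tested genes these shares were 13.5% lower and 13.4% higher. The p53 targets *Ccng1* and *Zmat3* were at 122.6 ± 13.2 against 155.4 ± 20.7 CPM and at 107.6 ± 6.07 against 86.6 ± 12.5 CPM. *Trp53* itself, at 36.1 ± 2.26 and 38.4 ± 5.43 CPM, overlapped.

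Among 11 partners and antagonists of MYC none passed and the median was -0.06, with *Mxd3* at 2.89 and 6.09 CPM. Of 14 genes for turnover of CDK inhibitors and cyclins, 13 were tested, none passed and the median was 0.04, with *Cks2* at 7.15 and 13.3 CPM.

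Clock regulators, by contrast, had 11 of 25 genes past the threshold. *Bhlhe40*, *Ciart*, *Dbp*, *Nr1d1*, *Nr1d2* and *Per3* fell and *Arntl*, *Clock*, *Cry1*, *Nfil3* and *Npas2* rose. *Nr1d1* and *Nr1d2*, which encode the REV-ERB repressors, were at 6.00 ± 1.11 against 34.2 ± 3.47 CPM and 11.5 ± 1.75 against 73.7 ± 10.9 CPM. *Nfil3*, a repressor at D-boxes, rose from 14.8 ± 0.953 to 28.3 ± 1.70 CPM. *Arntl* reads were higher, at 23.6 ± 0.941 against 13.8 ± 1.5 CPM. A gene-level count does not separate the deleted part of *Arntl* from the rest and so does not check the genotype.

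**Figure D4:**
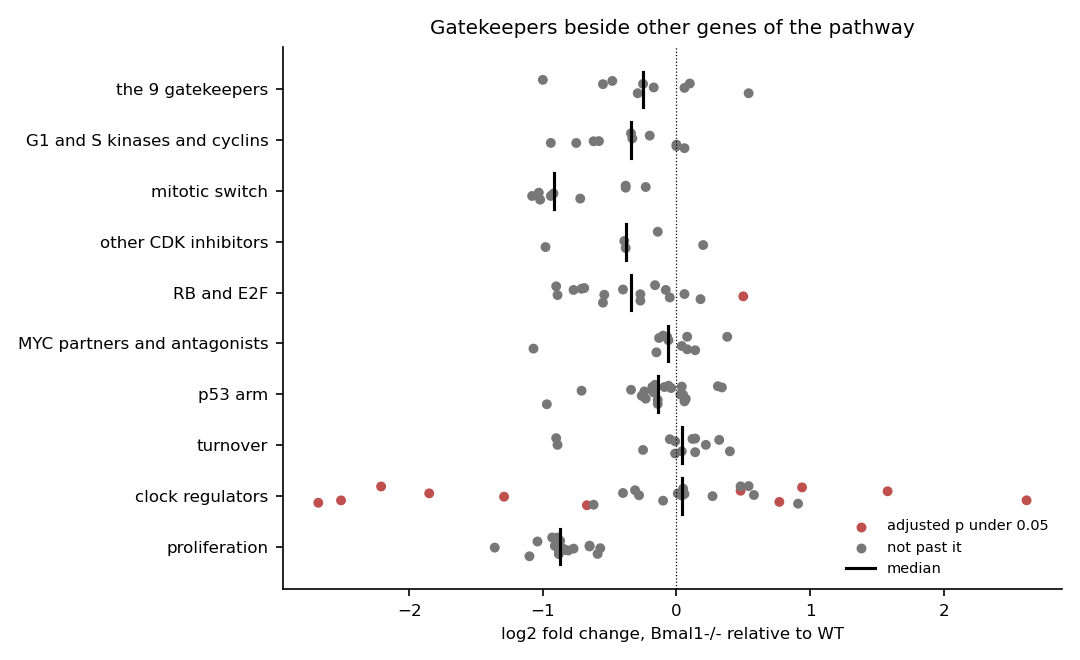
Log2 fold change, *Bmal1*-/- relative to WT, of the 9 gatekeepers and of each tested gene in 9 other lists, 1 dot per gene (red past an adjusted p of 0.05 in edgeR, grey not) with the median as a bar. Medians of -0.92 for the mitotic switch and -0.87 for proliferation lay below that of the gatekeepers at -0.25.

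Genes of proliferation moved with several gatekeepers. All 18 were lower in every *Bmal1*-/- library than in every WT library, against 13.5% of all genes. All 18 also had an unadjusted edgeR p under 0.05, against 20.9% of all genes in either direction. None passed the adjusted threshold, and the median log2 fold change was -0.87. *Mcm2*, of the replicative helicase, was at 24.0 ± 2.46 and 44.5 ± 9.72 CPM (edgeR adjusted p 0.0579). Their summed level was 428.2 to 543.4 CPM in *Bmal1*-/- and 681.0 to 1173 CPM in WT, highest in WT replicate 3.

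Set against that sum, a scale chosen after the values were seen, a gene at like CPM in both genotypes stands higher in *Bmal1*-/-, since the sum is lower there. *Cdkn1b*, for which the genotypes overlapped in CPM, was thus at 8.61 to 11.4 per 100 CPM of proliferation genes in *Bmal1*-/- and 3.68 to 7.46 in WT. *Cdkn2c* was the 1 gene of the 9 that remained lower in each *Bmal1*-/- library, at 2.39 to 2.68 against 2.84 to 2.98, a much narrower spread than that of its CPM. *Cdkn1a* was at 27.9 to 32.5 and 10.7 to 13.9. *Ccnd1*, *Ccnd2*, *Myc* and *Mycn* were also higher in each *Bmal1*-/- library on this scale, and *Wee1* and *Ccnd3* overlapped.

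**Figure D5:**
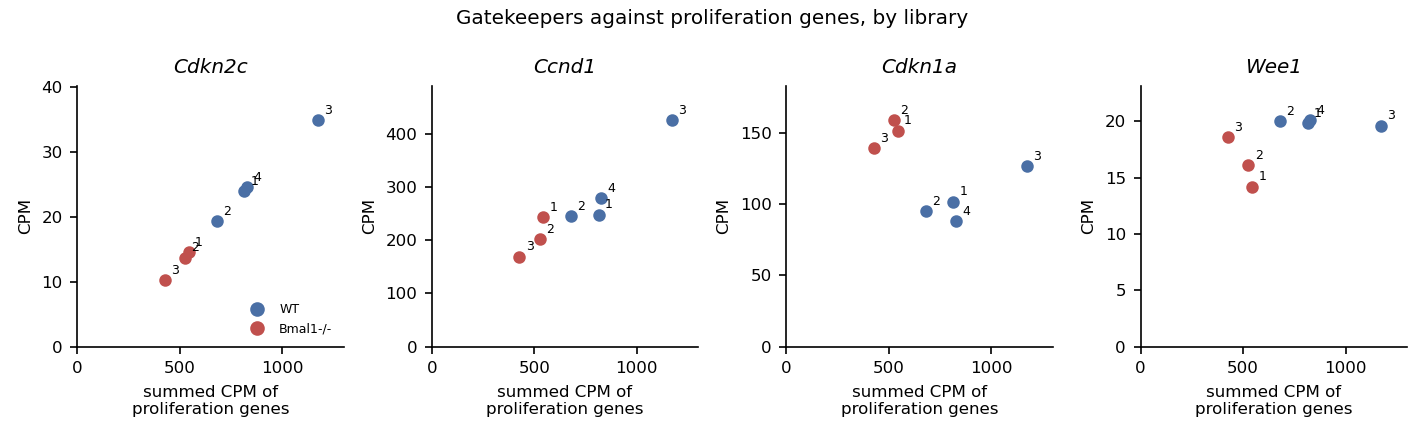
CPM of *Cdkn2c*, *Ccnd1*, *Cdkn1a* and *Wee1* against the summed CPM of 18 proliferation genes, 1 point per library, with WT in blue, *Bmal1*-/- in red and replicate numbers beside the points. *Cdkn2c* ran with the sum from 10.3 CPM in *Bmal1*-/- replicate 3 to 34.9 CPM in WT replicate 3, *Cdkn1a* was higher in *Bmal1*-/- at lower sums, and *Wee1* in WT stayed at 19.6 to 20.1 CPM while the sum ran from 681.0 to 1173 CPM.

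The genes whose pattern over the 7 libraries was most like that of *Cdkn2c*, among 12493 genes with a mean of at least 5 CPM, were *Kif4*, *Tpx2* and *Cenpf*, with a root mean square difference of 0.03, 0.04 and 0.04 on the log2 scale after centring. For *Cdkn1a* they were *Ctsl*, *Mmp14* and *Coa4*, at 0.08, 0.09 and 0.10. *Kif4*, *Tpx2* and *Cenpf* encode proteins of the mitotic chromosome, spindle and kinetochore, and *Ctsl* and *Mmp14* encode proteases. None of the 6 passed the adjusted threshold.

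For 6 of 13 marker lists of cell types, the summed level did not overlap between the genotypes. Skeletal muscle was at 5.18 to 5.79 CPM in *Bmal1*-/- and 45.7 to 59.0 CPM in WT (6 of 7 genes called lower). Schwann cell was at 152.9 to 209.3 and 233.5 to 547.4 CPM (1 of 4 called lower). Erythroid was at 26.1 to 60.0 and 148.8 to 450.9 CPM (1 of 5 called lower). Called or not, all 7, 4 and 5 genes were lower in every *Bmal1*-/- library than in every WT library, against 13.5% of all genes. The OPC sum was at 408.0 to 486.6 against 270.2 to 403.0 CPM, with 0 of 5 called. Its largest part was *Gpr17*, for which the genotypes overlapped (243.8 ± 34.9 against 175.2 ± 51.9 CPM). Of the 5 OPC genes, 4 were higher and 1 lower on average, and 1 was higher in each *Bmal1*-/- library. The astrocyte sum, most of it *Gfap*, was at 13668 to 16095 against 9280 to 13200 CPM, with 0 of 6 called. The astrocyte genes did not move as one, since *Gfap* was higher in each *Bmal1*-/- library (11642 ± 1419 against 8702 ± 1284 CPM), *Aldh1l1* was lower in each (126.6 ± 11.3 against 174.8 ± 27.4 CPM), and *Gja1* overlapped. The pericyte sum, most of it *Rgs5* (159.6 ± 23.2 against 221.0 ± 22.4 CPM), was at 206.4 to 264.5 against 280.8 to 341.6 CPM (0 of 5 called). Of the 5 pericyte genes, 3 were lower and 2 higher, and *Abcc9* was higher in each *Bmal1*-/- library (24.2 ± 0.57 against 20.1 ± 1.09 CPM).

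The other 7 sums overlapped. Endothelial genes were at 407.8 to 455.5 against 450.2 to 677.8 CPM, with 1 of 6 past the threshold, *Cdh5*, which fell. The lists for macrophage (2052 to 2808 against 2017 to 4063 CPM), microglia (951.9 to 1099 against 956.0 to 1236 CPM), neutrophil (24.5 to 53.2 against 30.8 to 110.0 CPM), oligodendrocyte (22309 to 27670 against 22816 to 33853 CPM), neuron (2964 to 3750 against 1179 to 2974 CPM) and fibroblast (297.6 to 2213 against 1103 to 1817 CPM) had 0 genes called. The muscle gene *Myh4* had 0 reads in *Bmal1*-/- replicate 1, and no other marker was at 0 in a library. The part of these differences in the values of the gatekeepers was not tested.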

How the data were processed

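RNA was measured in 7 libraries of injured spinal cord. The authors deposited raw counts per gene. Per the labels and the study's methods, stranded poly-A libraries were aligned with Tophat2 to GRCm38 and counted with HTSeq 0.10.0, after FastQC 0.10.1. The annotation release and strand setting are not given in the sources used here, and where strand was ignored, overlapping antisense genes share reads. Totals were 38529644 to 44096737 counts.

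Genotypes were compared with edgeR 4.0.16 (quasi-likelihood test, TMM, filterByExpr, R 4.3.3) over 15743 genes, with p-values adjusted by Benjamini-Hochberg and called under 0.05. The study itself used DESeq2 at a q-value under 0.05 and found cell proliferation terms enriched among its downregulated genes. Alternatives here were DESeq2 1.42.0, limma-voom 3.58.1, other scalings and filters, sex as a covariate, a replicate block and leaving out each library. The fit was tested on simulated data. Exon lengths and overlaps came from GENCODE M21, and symbols from a list of gene names, each covering 21939 of 21965 genes. Mice of a group were separate animals.

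All 9 members are named; of each pathway list, the genes past the threshold, or else the gene of smallest p; and the 3 genes most like each of the 2 members of smallest p. Other genes named were chosen after their values were seen. The members and lists were chosen with earlier results of these data known.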

Additional observations from a re-analysis of the deposited data

Results flagged for a closer look

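In WT replicate 3, *Myc* was at 28.9 CPM while the other WT libraries lay between 16.7 and 18.6 CPM, and its gap to the nearest of them was 0.848 of the range. *Ccnd3* in the same library was at 113.9 CPM while the others lay between 82.5 and 87.7 CPM, a gap of 0.832. Both gaps are past Dixon's 95% critical value for 4 samples. Chance alone gives such a gap in about 5% of groups, and 9.64% of all tested genes had one among the WT libraries.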

How the results depend on the processing

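Of the 9 genes, 0 were lower and 0 higher past the threshold in edgeR. DESeq2 called 2 lower and 1 higher, and fits with 1 library left out called 0 to 1 lower and 0 to 1 higher. For the 104 other pathway genes, clock genes left aside, edgeR called 0 lower and 1 higher. DESeq2 called 35 lower, a filter of 1 count called 1 lower (*Foxm1*), and fits with 1 library left out called 0 to 24 lower and 0 to 1 higher, with 24 lower without WT replicate 3 and 2 without WT replicate 2. Clock regulators higher numbered 5, DESeq2 giving 10 and fits with 1 library left out 3 (without any 1 *Bmal1*-/- library or WT replicate 4) to 8 (without WT replicate 3). Those lower numbered 6, with 8 in DESeq2 and 4 to 7 in these fits. *Mycn*, at 0.10, turned to -0.04 without WT replicate 3 and lay between -0.04 and 0.23 with 1 library left out. Shares by raw counts differed from those per kilobase, with *Ccnd1* at 56.5% against 71.5% of the D cyclins in *Bmal1*-/- and 59.9% against 74.2% in WT. The causes were not tested beyond these settings. Same-numbered libraries did not deviate together, with correlations of -0.2156, 0.1036 and -0.2257, and not every library correlated best with its own number. With a replicate block 0 members, 0 other pathway genes in either direction and 0 clock regulators in either direction were called, as were 0 of all genes. Over all genes edgeR called 247, DESeq2 1495, sex as a covariate 174, and fits with 1 library left out 57 (without *Bmal1*-/- replicate 1) to 730 (without WT replicate 3). Leaving out 1 of 3 or 4 libraries also leaves fewer samples to estimate the spread.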

Other observations

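Per kilobase of exon, *Cdkn1a* stood to *Ccnd1*, brake to accelerator of G1, as 0.83, 1.05 and 1.09 in *Bmal1*-/- replicates 1 to 3 and as 0.544, 0.514, 0.394 and 0.420 in WT replicates 1 to 4. The mean ratio was 0.990 ± 0.141 in *Bmal1*-/- and 0.468 ± 0.0721 in WT, 2.11 times higher, and the groups did not overlap. The ratio of *Ccnd1* to *Cdkn2c* was 9.10 ± 0.611 and 6.64 ± 0.578, also without overlap. For *Cdkn1a* to *Cdkn2c* it was 8.98 ± 1.21 and 3.1 ± 0.471, without overlap. For *Cdkn1a* to *Cdkn1b* the groups overlapped, at 3.65 to 4.26 in *Bmal1*-/- and 2.4 to 3.75 in WT. These ratios were chosen after the values were seen and carry no test.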
